A study of Mus musculus with 24 samples.

Results

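Adropin and 8 other hormones or hormone-binding proteins that the liver secretes were followed in the livers of mice on 3 diets. The 9 genes were Enho, Fgf21, Angptl4, Angptl6, Ahsg, Fetub, Lect2, Igfbp1 and Igf1, and every probe set of the array whose annotation lists a single gene symbol that is one of these was taken. This gave 16 probe sets of the 45037 that are not array controls: 4 each for Enho and Igf1, 2 for Angptl4 and 1 for each of the others. The group was chosen by gene name with the high-fat against low-fat values of these arrays already known, so those values are given below as a description, with no p-value for a member; the number of members that limma calls is given beside that over all probe sets and tests nothing. The livers came from male C57BL6J mice: 6 on a low-fat diet (LF), 6 on a high-fat diet labelled 45% (HF) and 6 on that high-fat diet with 5% powdered propagules, the aerial tubers of Japanese yam (HF+P). All mice were accustomed to the low-fat diet beforehand, ate their experimental diet freely for 4 weeks and went without food for 16 h before dissection, so every level below is a fasted level. Each mouse gave 1 array; the 6 HF arrays were processed once together with the LF arrays and once together with the HF+P arrays, and each comparison stays within its own set of 12 columns. The mice are known by number only, no age is given, and each label was taken as a separate animal.

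Hormones of liver origin carry the state of hepatic metabolism to fat, muscle and brain. Adropin, the peptide encoded by Enho, is made in liver and brain and is known for its response to dietary fat and its effects on glucose and fat use. FGF21 is a fasting hormone switched on by the fatty acid receptor PPAR-alpha and acts through FGF receptors with the co-receptor beta-Klotho. ANGPTL4 is another PPAR-alpha target that inhibits lipoprotein lipase, and ANGPTL6 is a related secreted protein named angiopoietin-related growth factor. Fetuin-A (Ahsg) binds calcium phosphate in plasma and can inhibit the insulin receptor, and fetuin-B (Fetub) is its close relative. LECT2 is a chemotactic plasma protein counted among the hepatokines. IGF1 is the growth factor through which growth hormone acts, and IGFBP1 is an insulin-repressed protein that binds it.

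Of the 9 genes, 7 had an entry in the RefSeq promoter table of GRCm38.p6. The 250 bases before the start of transcription are printed for Igfbp1 and Fgf21, the fasting-induced members whose values spread widely between mice. Capitals mark the motifs found on either strand among CAAAACA (the core of the insulin response element), CACGTG (the E-box bound by carbohydrate response factors), TATAAA (the TATA box) and AGGTCA (the nuclear receptor half-site).
Igfbp1 (chr11:7197537-7197786, plus strand): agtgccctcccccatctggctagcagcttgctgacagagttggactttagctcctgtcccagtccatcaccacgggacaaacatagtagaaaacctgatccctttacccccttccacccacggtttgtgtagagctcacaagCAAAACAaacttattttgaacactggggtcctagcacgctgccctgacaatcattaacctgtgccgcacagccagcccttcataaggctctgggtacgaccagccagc
Fgf21 (chr7:45615491-45615740, minus strand): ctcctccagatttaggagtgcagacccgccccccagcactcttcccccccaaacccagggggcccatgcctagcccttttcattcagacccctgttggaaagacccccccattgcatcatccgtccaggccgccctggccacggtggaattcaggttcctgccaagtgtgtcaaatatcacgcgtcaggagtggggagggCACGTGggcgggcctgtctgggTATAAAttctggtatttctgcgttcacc
The Igfbp1 window holds CAAAACA, whose first base lies 108 bases upstream of the start, and none of the other motifs. The Fgf21 window holds CACGTG 50 bases and TATAAA 28 bases upstream. Of 32851 promoter windows of this length, 5.56% hold CAAAACA, 6.02% hold CACGTG, 12.4% hold TATAAA and 14.0% hold AGGTCA. These matches describe letters only.

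The deposited values lie on a scale of log2 type whose base and summarisation no label or header names. They differ very little between arrays: over all probe sets the SD across 12 columns had a median of 4.17e-06 in the LF and HF set and 4.26e-06 in the HF and HF+P set. A difference in these values is therefore no fold change. Sizes are given as standardized differences, the difference of group means divided by the SD pooled within groups, with Hedges' correction for small samples and a 95% interval. Column medians of HF lay 3.36e-05 above those of LF. This was not an offset shared by all probe sets: 50.8% of them had higher values in HF, and the median standardized difference over all genes was 0.01. Centring each array on its median therefore moves most probe sets down in HF, and 88.5% of them passed as lower after it. Hepatocyte identity was clear, with the 6 measured hepatocyte markers between 13.24 and 14.89 in LF where the column median was 6.90. Fewer cells of a type and less RNA per cell cannot be told apart in such whole-tissue RNA.

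Enho was higher in HF than in LF livers in 2 of its 4 probe sets, with every HF mouse above every LF mouse in both. Neither was bright in these columns: 1428739_at lay around the column median of 6.90, and 1452893_s_at was higher than only 44.1% of probe sets. In the HF and HF+P columns they were higher than 77.4% and 75.8%. Whether either stood above background was not tested. In probe set 1428739_at the LF mice lay at 6.8781, 6.8817 and 6.8896 (lowest, median and highest deposited value) and the HF mice at 6.9033, 6.9103 and 6.9147. The groups did not overlap, and the gap between them was wider than the range within either. The standardized difference was 6.11 (95% interval 3.26 to 8.93, n = 6 per group). In probe set 1452893_s_at the LF mice lay at 6.7544, 6.7577 and 6.7646 and the HF mice at 6.7750, 6.7817 and 6.7860, a standardized difference of 5.46 (2.87 to 8.02). These probe sets share a source sequence in the annotation and ordered the mice alike, with the same order in 14 of 15 pairs of LF mice and 15 of 15 pairs of HF mice, so they are not independent readings. LF mouse 1 was the highest of its group and HF mouse 2 the lowest of its group in both. The direction was the same after quantile normalisation (6.13 and 5.47) and after centring each array on its median (6.11 and 5.46).

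The remaining Enho probe sets, which the annotation ties to a different source sequence, hardly varied. Probe set 1433382_at differed by -1.60e-06 (standardized -0.84, -1.92 to 0.29) and 1454585_at by 3.54e-06 (0.99, -0.16 to 2.10), beside 0.0276 for 1428739_at. Both overlapped between the groups, and their direction depends on the scaling: 1433382_at was at 0.99 after quantile normalisation, and 1454585_at at -1.58 after quantile normalisation and -1.83 after centring.

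**Figure D1:**
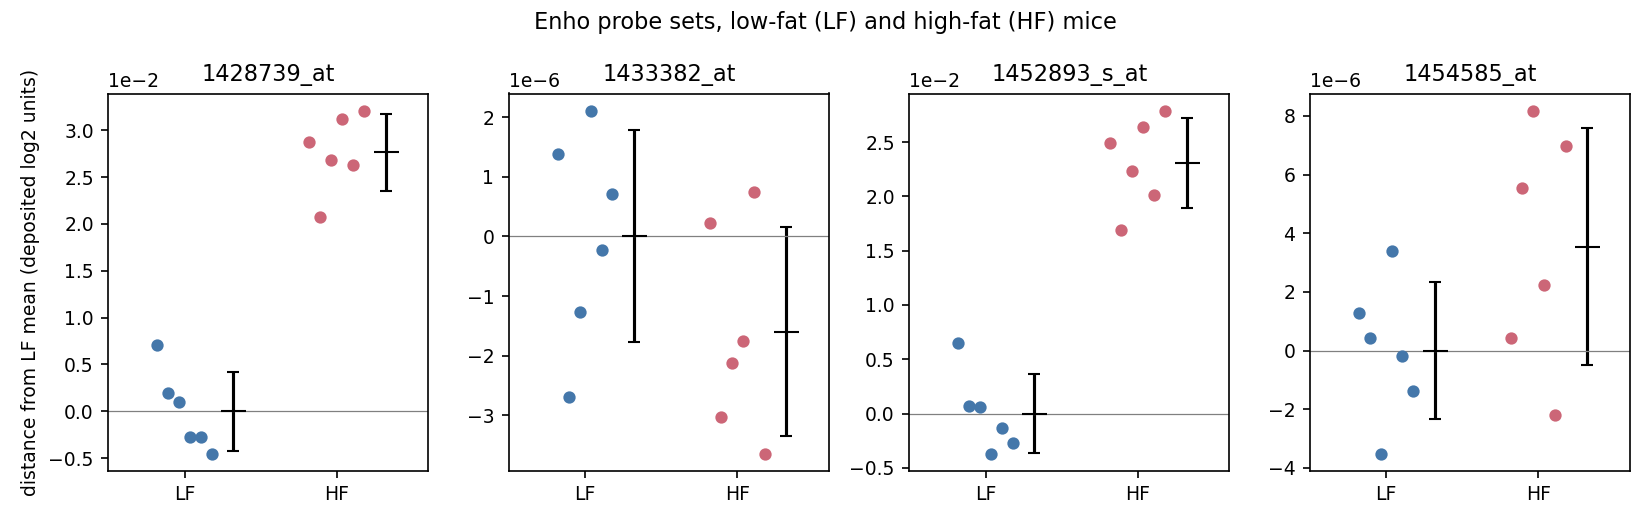
Each point is 1 mouse, plotted as its distance from the LF mean in deposited log2 units, with a panel and a vertical scale for each Enho probe set and the mean with its SD beside the points (n = 6 per group). In 1428739_at and 1452893_s_at all 6 HF mice lie above all 6 LF mice; in 1433382_at and 1454585_at, on a scale of millionths, the groups overlap and the direction changes with the scaling of the arrays.

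Probe set 1428739_at had the highest Enho mean over all 24 columns, although 1433382_at was brighter within the LF and HF columns. The genes whose profile over the 12 LF and HF mice was most like that of Enho 1428739_at were all enzymes of cholesterol synthesis. Likeness was the root mean square distance between profiles scaled to mean 0 and SD 1, among the 66 other genes whose SD over the 12 columns reached 0.01. Idi1, isopentenyl diphosphate isomerase, was nearest at 0.30 SD, followed by Cyp51, lanosterol demethylase, at 0.31 and Msmo1, a methylsterol oxidase, at 0.32. Fdps, farnesyl diphosphate synthase, lay at 0.34 and Sqle, squalene epoxidase, at 0.35. Such a distance is set mostly by the gap between the diets, and 14 of the 66 genes were higher in HF without overlap. How many of these are enzymes of cholesterol synthesis was not counted. Within a diet the likeness did not continue: the 5 genes put 5 to 7 of the 15 pairs of LF mice and 6 to 10 of the 15 pairs of HF mice in the order of Enho, where the median over 18192 genes was 7 and 8.

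Igfbp1, Fgf21 and Angptl4, the members that fasting induces, had lower means in HF. Igfbp1 had the widest spread of all members. Its LF mice lay at 10.2660, 10.3117 and 10.3376 (lowest, median and highest) and its HF mice at 10.2382, 10.2546 and 10.3065, a standardized difference of -1.57 (-2.79 to -0.30). Of the HF mice, 4 lay below every LF mouse, while HF mouse 1 lay at about the LF mean, so the groups overlapped. Fgf21 lay at 7.3520, 7.3558 and 7.3574 in LF and at 7.3495, 7.3516 and 7.3526 in HF, a standardized difference of -2.17 (-3.55 to -0.74). Here 4 HF mice lay below every LF mouse and the lowest LF mouse, number 4, lay among the HF mice. Without that mouse the standardized difference was -3.22.

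Angptl4 differed least of the 3. Its brighter probe set, 1417130_s_at, lay at 10.2026, 10.2055 and 10.2086 in LF and at 10.2011, 10.2032 and 10.2056 in HF (-1.01, -2.12 to 0.15), with 2 HF mice below every LF mouse. The dimmer one, 1453410_at, had a level higher than only 1.39% of probe sets and a standardized difference of -0.15 (-1.19 to 0.90), which turned to 0.21 without LF mouse 3. The LF mouse with the highest value was the same for Fgf21 and Angptl4 1417130_s_at (mouse 1), as was the LF mouse with the lowest (mouse 4). Among the HF mice the same numbers, 1 and 4, were highest and lowest for both. For Igfbp1 number 2 was lowest in both diets, while the highest was number 5 in LF and number 1 in HF. Whether the numbers pair the mice is not settled. Lipoprotein lipase (Lpl), the enzyme ANGPTL4 inhibits, had a standardized difference of -2.31 (-3.73 to -0.84; limma, Benjamini-Hochberg adjusted p = 0.0526), which did not pass. Of the 4 measured markers of fat cells 3 had lower means in HF (Fabp4 at -1.55, Adipoq at -0.58 and Lep at -0.07). The other, Retn, was at 0.29, and 50.7% of all genes were higher in HF. Adipoq and Lep lay at 6.04 and 6.64 in LF, below the column median of 6.90. The summed level of the 4 was 28.111 to 28.122 in LF and 28.110 to 28.111 in HF. In HF+P against HF 3 of the 4 were higher (Adipoq at 0.99, Fabp4 at 0.91 and Lep at 0.01) and Retn was at -0.19. In limma 0 of the 4 passed in either comparison, with 1 and 0 at an unadjusted p below 0.05. Their part in the result was not tested.

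**Figure D2:**
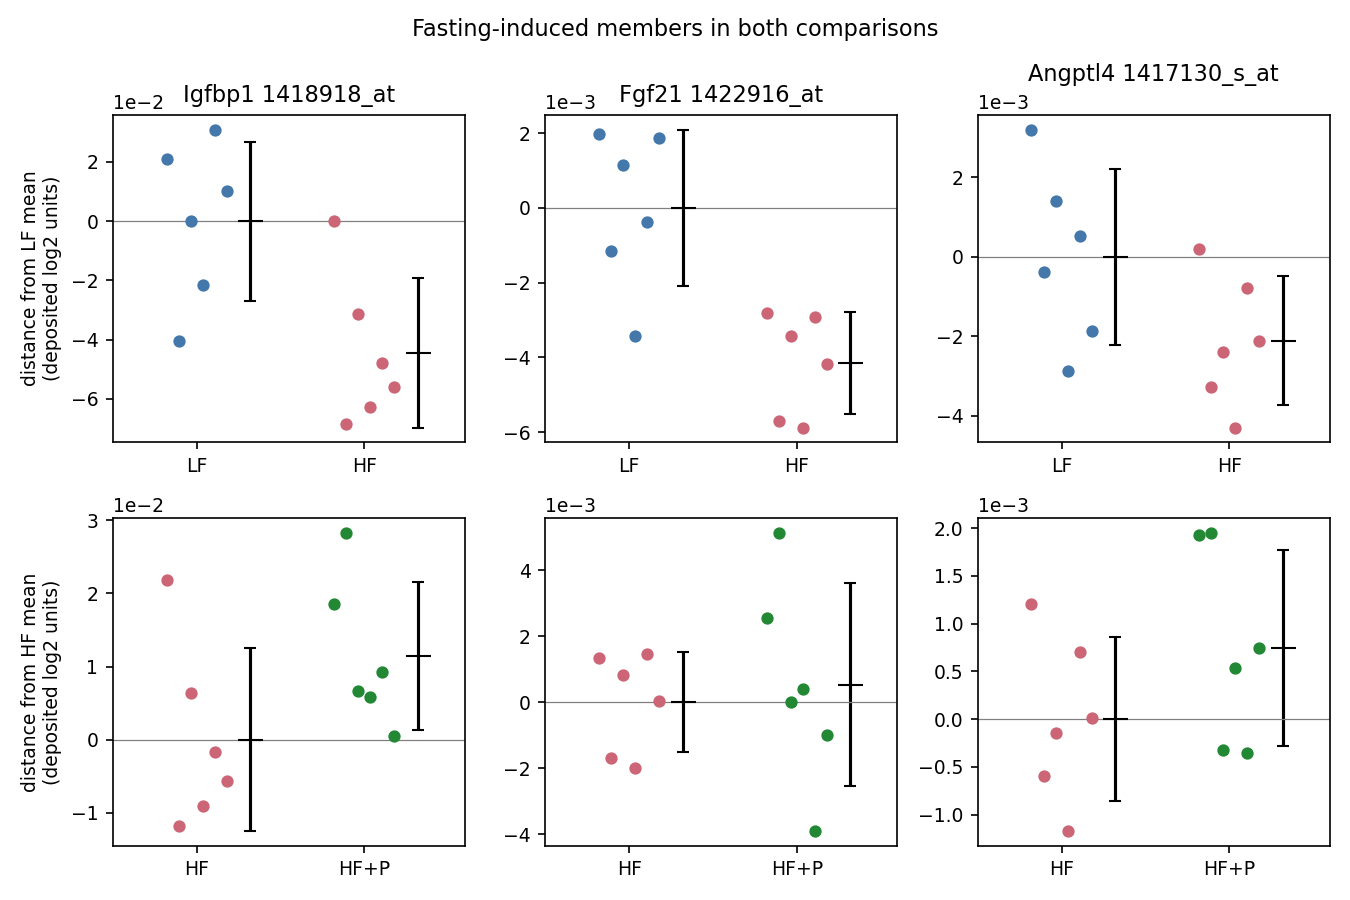
Each point is 1 mouse, as its distance from the LF mean (upper panels) or from the mean of the HF arrays processed with HF+P (lower panels) in deposited log2 units, with the mean and SD beside the points (n = 6 per group) and a vertical scale for each panel. For Igfbp1 and Fgf21, 4 HF mice lie below all LF mice, whereas HF and HF+P overlap for all 3 genes.

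As deposited, Igf1 had a higher mean in HF in each of its 4 probe sets, by very different amounts. The differences were 0.00032 in 1419519_at, 7.86e-05 in 1452014_a_at, 4.84e-05 in 1434413_at and 1.82e-05 in 1437401_at. All but the first were below 0.0001, as were those of Angptl6 and the fetuins. Directions given for Igf1 are those of the deposited values. In 1452014_a_at the LF mice lay at -2.69e-05, 6.38e-06 and 2.31e-05 from the LF mean of 12.113 (lowest, median and highest) and the HF mice at 6.60e-05, 7.02e-05 and 0.000102. No HF mouse overlapped the LF mice, and the standardized difference was 3.82 (1.84 to 5.74). The other probe sets overlapped between the diets. Probe set 1419519_at had a standardized difference of 2.06 (0.66 to 3.40), 1434413_at of 0.97 (-0.18 to 2.07) and 1437401_at of 0.75 (-0.36 to 1.83), the last of which was at -0.49 after centring on the column medians. LF mouse 5 had the lowest Igf1 value of its group in all 4 probe sets. The difference in 1452014_a_at was 2.34 times the shift of the column medians and stood at 1.94 after centring; its rank among all probe sets was the same in every array, so quantile normalisation gave no value.

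Genes around Igf1 were measured alongside. Igfals, which carries IGF1 in the circulating ternary complex, had a standardized difference of 2.16 (0.73 to 3.53) and Ghr, the growth hormone receptor, of 2.02 (0.63 to 3.35). Neither passed (limma, adjusted p = 0.0673 and 0.0829). Over the 19 genes of the IGF list 10 were higher and 9 lower in HF, with a median of 0.07 beside 0.01 over all genes.

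Lect2 was higher in HF than the LF mean in 6 of 6 mice. Its LF mice lay at 10.2120, 10.2128 and 10.2139 and its HF mice at 10.2134, 10.2139 and 10.2143, a standardized difference of 1.99 (0.61 to 3.31). The overlap came from LF mouse 2, the highest of its group, without which the value was 3.41.

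Angptl6 and the fetuins differed between the diets by less than 0.0001. Angptl6 had 5 of 6 HF mice above every LF mouse and a standardized difference of 2.16 (0.73 to 3.54), but -1.91 after quantile normalisation. Fetub, whose gene lies next to Ahsg, had a standardized difference of 2.16 (0.73 to 3.53), -0.27 after centring and 5.13 without LF mouse 4, which stood above the rest of its group. Ahsg differed by 1.29e-06, a standardized difference of 1.47 (0.22 to 2.67), and lay at -1.97 after centring. The differences of both fetuins were smaller than the shift of the column medians, so centring turned their sign by subtraction. Since 88.5% of all probe sets passed as lower after centring, the turn does not decide their direction. As deposited, 6 HF mice lay above the LF mean for Fetub and 5 for Ahsg, with overlapping groups. No direction is claimed for either gene, since the differences were small and fell below the shift. The same holds for Igf1 1437401_at, at 1.82e-05.

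Of the 16 member probe sets 11 had higher and 5 had lower values in HF, where 50.8% of all probe sets had higher values. In limma, fitted over all 45037 probe sets with Benjamini-Hochberg adjustment and a threshold of 0.05, 3 passed, all higher in HF: 1428739_at and 1452893_s_at of Enho and 1452014_a_at of Igf1. Over all probe sets 0.671% passed in either direction and 0.269% passed upward. The same 3 members were those whose groups did not overlap, which held for 1.57% of all probe sets. At a threshold of 0.1, 6 members passed, where 1.91% of all probe sets did. With the mouse number as a replicate block 2 passed, Igf1 1452014_a_at no longer among them, where 0.546% of all probe sets did. Because the group was assembled with this contrast known, these counts support nothing. The split of the calls depends on the scaling. After quantile normalisation 2 members passed as higher and 3 as lower, where 0.389% and 14.6% of all probe sets did. After centring 5 passed as higher and 6 as lower, where 0.944% and 88.5% of all probe sets did, so that a lower call was the usual outcome there.

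**Figure D3:**
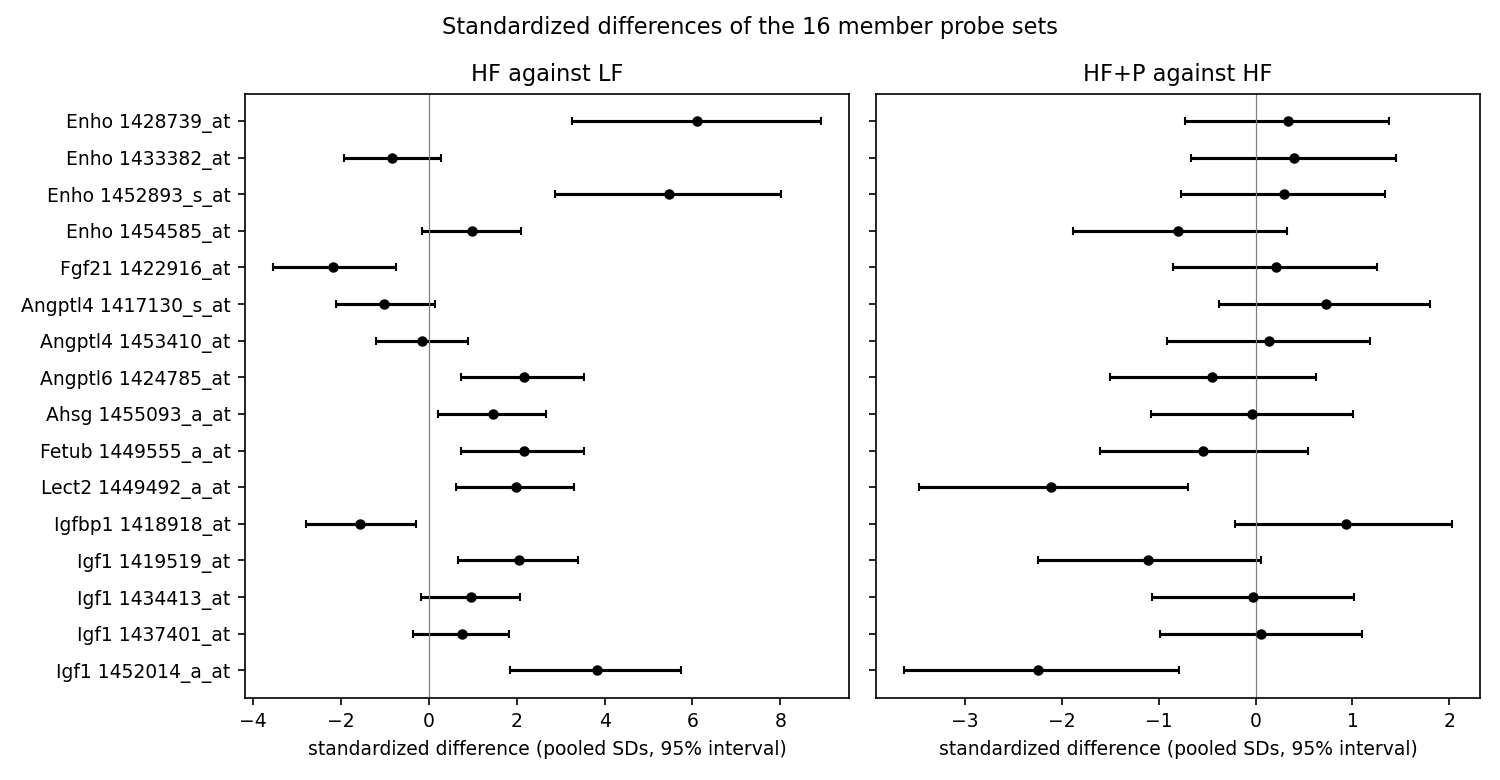
Points are standardized differences in pooled SDs with 95% intervals for the 16 member probe sets, HF minus LF on the left and HF+P minus HF on the right (n = 6 mice per group). The largest values on the left are those of Enho 1428739_at (6.11) and 1452893_s_at (5.46) and Igf1 1452014_a_at (3.82); on the right the largest in size are those of Igf1 1452014_a_at (-2.24) and Lect2 (-2.11). Signs that turn with the scaling are those of Enho 1433382_at and 1454585_at, Angptl6, Ahsg, Fetub and Igf1 1437401_at on the left, and of Enho 1428739_at, 1433382_at and 1454585_at, Angptl4 1453410_at, Angptl6, Ahsg and Igf1 1419519_at on the right.

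The comparison of HF+P with HF asked what eating the propagules changed. It reuses the HF mice of the diet comparison, so its values stand beside those above without being independent of them. Of the member probe sets 8 had higher and 8 lower values in HF+P, where 49.3% of all probe sets had higher values. In limma 0 of the 16 passed, where 0.00222% of all probe sets did; 2 had an unadjusted p below 0.05, where 6.94% of all probe sets did. The groups did not overlap for 1 member, where this held for 0.355% of all probe sets. Each of the 16 probe sets was also given a two-sided exact permutation test, which goes through the 924 ways to divide 12 mice into the groups. Its p-values are not adjusted over the 16 probe sets, and the members were chosen with earlier results of these data known, so they describe single probe sets only.

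Igf1 1452014_a_at was the member with separate groups. The HF mice lay at -4.51e-06, -1.98e-06 and 6.98e-06 from the HF mean of 12.169 and the HF+P mice at -2.59e-05, -1.44e-05 and -8.01e-06. All 6 HF+P mice lay below all 6 HF mice, with a difference of means of -1.52e-05 and a standardized difference of -2.24 (-3.63 to -0.79). The exact permutation p was 0.00216, the smallest that 924 assignments can give, and limma's adjusted p over all probe sets was 0.459, so the difference did not pass. For the remaining Igf1 probe sets the standardized differences were -1.11 (-2.24 to 0.06) in 1419519_at, -0.03 (-1.07 to 1.02) in 1434413_at and 0.06 (-0.99 to 1.10) in 1437401_at. The value of 1419519_at was 0.84 after quantile normalisation.

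Lect2 had lower values in HF+P. The HF mice lay at -0.000187, 1.81e-05 and 0.000195 from the HF mean of 10.768 and the HF+P mice at -0.000578, -0.000322 and -0.000183. Below the whole HF group lay 5 of the HF+P mice, and their highest, mouse 4, lay just above the lowest HF mouse. The standardized difference was -2.11 (-3.47 to -0.70), with an exact permutation p of 0.00433 and a limma adjusted p of 0.471, which did not pass. Met, a receptor reported for LECT2, had a standardized difference of -1.71 (-2.96 to -0.40; limma, adjusted p = 0.528). Markers of macrophages had values in the directions of Igf1 1452014_a_at and Lect2 in both comparisons: 7 of 7 measured were higher in HF than in LF, with a summed level of 63.589 to 63.704 in LF and 63.589 to 63.674 in HF, and 7 of 7 were lower in HF+P, with 63.374 to 63.410 in HF and 63.372 to 63.388 in HF+P. In limma 0 of the 7 passed in either comparison, with 1 and 0 at an unadjusted p below 0.05. Of the 3 red cell markers 2 were higher in HF than in LF (median 0.13) and 3 were lower in HF+P (median -0.94). Of the 3 markers of pancreatic acinar cells 2 were higher in HF than in LF and 2 lower in HF+P. Among them Cela1, an elastase, was at 2.29 in HF against LF without overlap (limma, adjusted p = 0.0542) and at -0.77 in HF+P against HF. Of the 6 stellate cell markers 4 were higher in HF than in LF and 4 lower in HF+P. Of the endothelial, bile duct and hepatocyte markers 2 of 6, 1 of 4 and 2 of 6 were higher in HF than in LF. In HF+P 3, 1 and 2 of them were lower. Over all genes 50.7% were higher in HF than in LF and 51.5% higher in HF+P than in HF. None of these markers passed, and the part of any cell type in these results was not tested.

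**Figure D4:**
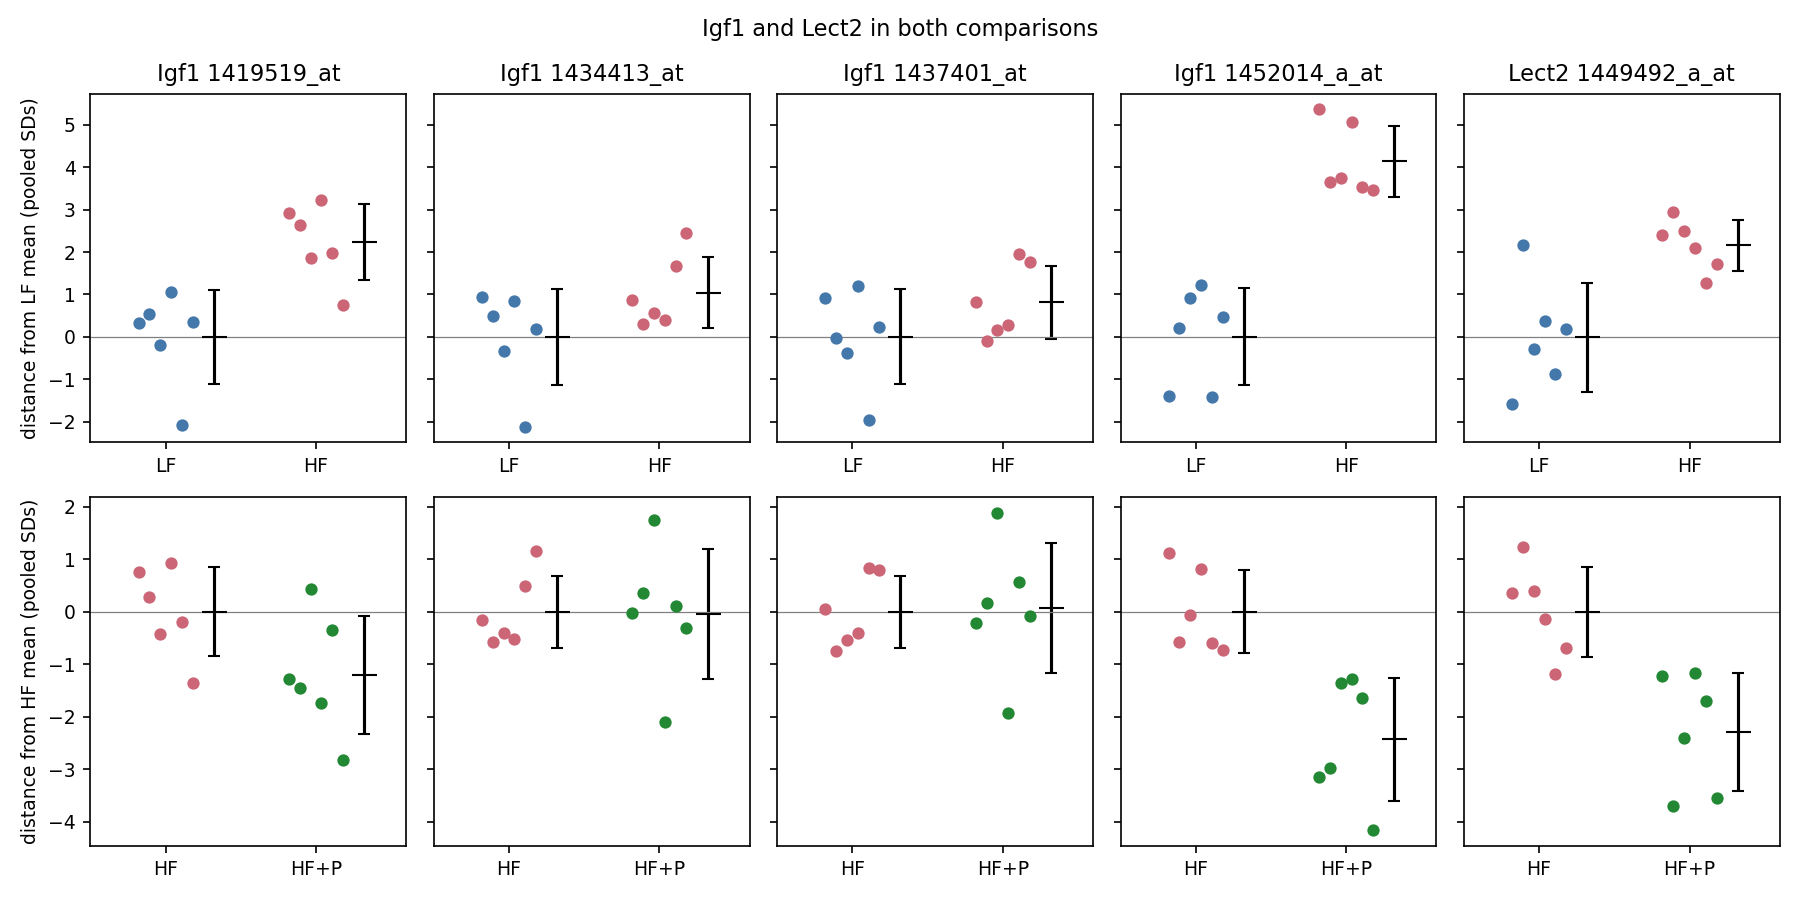
Each point is 1 mouse, as its distance in pooled SDs from the LF mean (upper panels) or from the HF mean of the HF and HF+P set (lower panels), with the mean and SD beside the points (n = 6 per group). Only in Igf1 1452014_a_at among these 5 probe sets do the groups separate in both rows, with HF above LF and HF+P below HF. These differences were 7.86e-05 and -1.52e-05 in deposited units. The 2 rows share the HF mice.

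No difference in Enho between HF+P and HF was detected. Probe set 1428739_at lay at 7.9338, 7.9344 and 7.9349 in HF and at 7.9340, 7.9346 and 7.9352 in HF+P, with overlapping groups and a standardized difference of 0.33 (-0.73 to 1.38; exact permutation p = 0.545), which was -0.05 after quantile normalisation. Probe set 1452893_s_at had a value of 0.29 (-0.77 to 1.34; exact permutation p = 0.589). The interval bounds the difference at 1.38 pooled SDs, and these data do not show that the groups are alike. The cholesterol synthesis genes nearest to Enho in the diet comparison had values of -0.75 (Idi1), -0.91 (Cyp51), -0.68 (Msmo1), -0.77 (Fdps) and -0.97 (Sqle) here, none of which passed (limma, adjusted p between 0.733 and 0.805).

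The fasting-induced members overlapped between HF+P and HF. Igfbp1 lay at 10.1792, 10.1873 and 10.2129 in HF and at 10.1915, 10.1989 and 10.2193 in HF+P. All 6 HF+P mice lay above the HF mean and 1 above every HF mouse, with a standardized difference of 0.93 (-0.21 to 2.03; exact permutation p = 0.119). Fgf21 had a value of 0.21 (-0.85 to 1.25; exact permutation p = 0.716). Its HF+P mice spread over a wider range than the HF mice on both sides, with mouse 2 the highest and mouse 7 the lowest. Without HF+P mouse 2 its value was -0.18. Angptl4 1417130_s_at had a value of 0.73 (-0.38 to 1.80; exact permutation p = 0.197), with HF+P mice 1 and 2 above every HF mouse. Angptl6 was at -0.45, Fetub at -0.54 and Ahsg at -0.04, with exact permutation p of 0.411, 0.353 and 0.951; the sign of Angptl6 turned after quantile normalisation (1.31) and that of Ahsg after centring (0.50).

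Partners, receptors and regulators of these hormones and other secreted liver proteins were counted in 7 lists, with 1 probe set per gene; 74 of the 86 listed genes were matched. In HF against LF 0 of the 74 passed in limma, where 1.82% of 18193 genes did, and 14 had an unadjusted p below 0.05, where 15.2% of all genes did. At a threshold of 0.1, 5 passed, where 3.73% of all genes did. Of the 74 genes 46 were higher, where 50.7% of all genes were. The count of passing genes depends on the scaling, with 2 higher and 12 lower after quantile normalisation, where 0.720% and 17.7% of all genes were, and 3 higher and 42 lower after centring, where 1.27% and 87.2% were. The median standardized difference was 0.28 beside 0.01 over all genes. Hgfac, the protease that activates hepatocyte growth factor, was the listed gene whose groups did not overlap (2.34, 0.86 to 3.76; limma, adjusted p = 0.0503), where this held for 2.22% of all genes. Gpihbp1, which anchors lipoprotein lipase to the capillary wall, was at -2.13 (adjusted p = 0.0713), Spp2, a secreted phosphoprotein of the cystatin superfamily, at 1.86 (0.107), Atf4, a stress-response transcription factor, at 1.81 (0.118) and Gpnmb, a membrane glycoprotein with a shed form, at -1.71 (0.135). Met was at 1.35, Klb, the beta-Klotho co-receptor of FGF21, at -1.16, Hrg, histidine-rich glycoprotein, at 0.89, Rora, a nuclear receptor reported to regulate Enho, at -0.81, Cd209a at 0.78 and Gpr19, a candidate adropin receptor, at 0.41, and limma's adjusted p for these was between 0.240 and 0.779.

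In HF+P against HF 0 of the 74 passed in limma, where 0.00550% of all genes did, and 8 had an unadjusted p below 0.05, where 7.17% did. Of the 74 genes 32 were higher, where 51.5% of all genes were. The median standardized difference was -0.09 beside 0.02 over all genes. Spp2 was the listed gene with separate groups, at -2.62 (-4.13 to -1.05; limma, adjusted p = 0.469), where groups separated for 0.374% of all genes. Serpina12, which encodes vaspin, was at -1.77 (-3.03 to -0.45; adjusted p = 0.512) and Fst, the activin-binding protein follistatin, at 1.73 (0.42 to 2.99; adjusted p = 0.526). Cd209b was at -1.23, Srebf1, a transcription factor of lipid synthesis, at -1.06, Igf2 and its receptor Igf2r at -1.06 each, Lipg, endothelial lipase, at 0.94, Kng1, kininogen, at -0.90 and Angptl1 at -0.82. Creb3l3 and Ppara, transcription factors that act on Fgf21, were both at -0.60 and Nr1h3, a sterol-sensing nuclear receptor, was at 0.30. None of these passed (limma, adjusted p between 0.669 and 0.932).

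The same 6 HF arrays appear in both value sets, which shows how far a member's deposited level rests on the arrays it was processed with. Enho 1428739_at had an HF mean of 6.910 when processed with LF and of 7.934 when processed with HF+P, a change of 1.02, and 1452893_s_at went from 6.781 to 7.828. Over all probe sets the median absolute change of the HF mean was 0.103, and 0.129% of probe sets changed by at least as much as Enho 1428739_at. The SD among the 6 HF mice was 0.00411 in one set and 0.000363 in the other for Enho 1428739_at, 11.3 times smaller. Lect2 changed by 0.55, Igf1 1419519_at by 0.40 and Fgf21 by -0.30, and the remaining members by 0.26 or less in size. The order of the mice was kept far better than the level: at least 14 of 15 pairs of HF mice had the same order in both sets for 15 of the 16 member probe sets, and 10 of 15 for Enho 1433382_at. Levels and deposited differences of these genes can therefore be compared within a value set only.

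**Figure D5:**
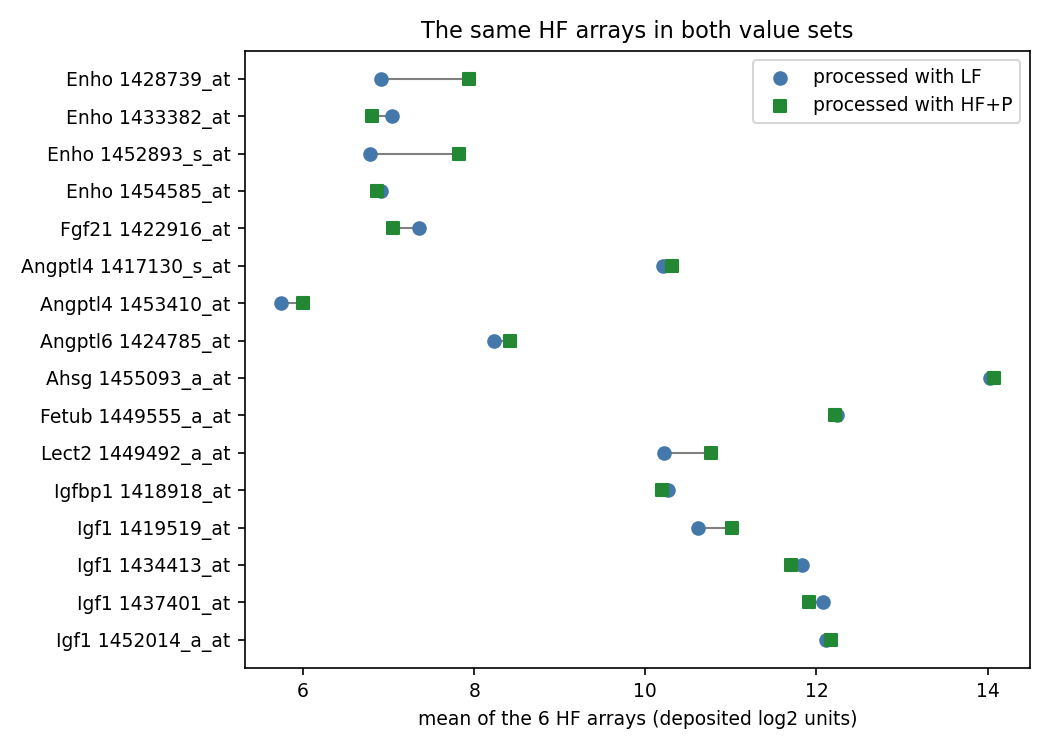
For each member probe set the circle is the mean of the 6 HF arrays processed with LF and the square the mean of the same 6 arrays processed with HF+P, in deposited log2 units. The longest lines are those of Enho 1428739_at (1.02) and 1452893_s_at (1.05) and of Lect2 (0.55).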

How the data were processed

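RNA from the livers of 18 mice, 200 ng of Trizol-extracted total RNA each per the labels' protocols, was hybridised to Affymetrix arrays. The values deposited by the authors are on a scale of log2 type, judged from their range; the submitters' processing notes name R 2.7.2, and no label or header names the summarisation, normalisation or log base. The series' design text says that HF was analysed with LF and again with HF+P, so the 24 columns form 2 value sets of 12. Gene names came from the array's platform annotation.

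Each comparison was fitted in R 4.3.3 by limma 3.58.1, using lmFit, then eBayes; every group held 6 mice and no covariate entered. The fit ran over 45037 probe sets for the members and over 18193 genes, each by the probe set of highest mean over all 24 columns (which spans both value sets), for the lists. Tests were two-sided with Benjamini-Hochberg adjustment. The number of arrays limits the precision. The p-values set each group difference against the spread between these mice only. The labels do not say how mice were housed, so whether cage went with diet is not known. The members and lists were chosen with earlier results of these data known. Named genes were the members, the 2 largest standardized differences per list and comparison, listed genes that passed, and the 5 profiles nearest to Enho. Of the 86 listed genes 12 were not matched. Alternatives were quantile normalisation, median centring, leaving out dimmer probe sets, another probe set per gene, trend and robust settings, array weights, a mouse-number block, a threshold of 0.1 and leaving out each mouse; taking the brightest probe set within each value set was added after seeing the data.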

Additional observations from a re-analysis of the deposited data

Results flagged for a closer look

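In 5 of the 64 combinations of member probe set and group, a mouse stood apart from the other 5 of its group by Dixon's criterion, where chance gives about 5% of groups. HF mouse 1 was the highest for Angptl4 1453410_at in both processings of its array, at 1.94 pooled SDs from its group mean with LF and 2.44 with HF+P, and HF+P mouse 4 was the lowest for the same probe set, at -1.19. LF mouse 4 was the highest for Fetub, at 2.53, and LF mouse 2 the lowest for Ahsg, at -1.54. Both HF values of Angptl4 come from 1 array.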

How the results depend on the processing

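The counts for members in HF against LF describe a contrast known when they were chosen and support nothing. With dimmer probe sets left out, or 1 probe set per gene by the mean over all 24 columns, 1452893_s_at was not tested and 2 members passed, Enho 1428739_at and Igf1 1452014_a_at. With the brightest probe set within the LF and HF columns, an alternative chosen after seeing the data, Enho is represented by 1433382_at and 1 member passed, Igf1 1452014_a_at. Instead of 3 member probe sets, 5 passed after quantile normalisation, 11 after median centring and 6 at a threshold of 0.1; leaving out 1 mouse gave 3 to 5, with 5 without LF mouse 4 (Fgf21 and Fetub added) and 4 without LF mouse 2 (Lect2 added). Over all probe sets 302 passed (121 higher, 181 lower), 6734 after quantile normalisation (175 higher, 6559 lower) and 40266 after centring (425 higher, 39841 lower); leaving out 1 mouse gave 131 to 325. Among the 74 listed genes 0 passed, but 14 did after quantile normalisation (18.4% of all genes did), 45 after centring (88.4%), 5 of 58 with dimmer genes left out (5.52%), 5 at a threshold of 0.1 (3.73%), and 1 each with the probe set of widest spread (1.46%), with array weights (1.90%) and with the replicate block (1.43%); leaving out 1 mouse gave 0 to 1. In HF+P against HF the counts of members and listed genes that passed were 0 under all of these; for Lect2 and Igf1 1452014_a_at the unadjusted p were 0.00433 and 0.00216 by exact permutation and 0.00181 and 0.00124 by limma, whose p adjusted over all probe sets were 0.471 and 0.459, so the adjustment separates them.

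Signs turned in HF against LF after quantile normalisation for Enho 1433382_at (0.99), Enho 1454585_at (-1.58) and Angptl6 (-1.91), and after centring for Enho 1454585_at (-1.83), Ahsg (-1.97), Fetub (-0.27) and Igf1 1437401_at (-0.49). In HF+P against HF they turned after quantile normalisation for Enho 1428739_at (-0.05), 1433382_at (-0.07) and 1454585_at (0.47), Angptl4 1453410_at (-0.84), Angptl6 (1.31) and Igf1 1419519_at (0.84), and after centring for Enho 1454585_at (0.20) and Ahsg (0.50). Leaving out 1 mouse gave -0.65 to 0.21 for Angptl4 1453410_at in HF against LF, and in HF+P against HF -0.18 to 0.66 for Fgf21, -0.08 to 1.05 for Angptl4 1453410_at, -0.39 to 0.36 for Ahsg, -0.43 to 0.47 for Igf1 1434413_at and -0.33 to 0.56 for Igf1 1437401_at. The turns after centring were in probe sets whose difference had the sign of the column median shift and was smaller, so that subtraction turned them. The cause of the other turns was not tested. For 6 probe sets per comparison the rank was the same in every array, so quantile normalisation gave no value.

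Whether the mouse numbers pair the samples is not settled by these values. The main fits and the permutation test took the mice as unpaired. Distances from the group mean in same-numbered mice had correlations of -0.13 to 0.098 between LF and HF and 0.034 to 0.209 between HF and HF+P. Each mouse was compared with the 6 mice of the other group, at most 1 of which was its namesake. Between LF and HF, each mouse numbered 1, 2, 4 or 5 correlated best with its namesake, and those numbered 3 and 8 did not. Between HF and HF+P this held for both mice numbered 8, for 1 mouse each of numbers 1, 3 and 4, and for neither numbered 2. With the number as a replicate block 2 members passed in HF against LF, the call of Igf1 1452014_a_at (3.32) being lost, and in HF+P against HF Ahsg was at 0.29 and Igf1 1434413_at at 0.03, both turned in sign. With that block Fgf21 was at -3.53, Angptl4 1417130_s_at at -1.9 and Enho 1428739_at at 4.73 in HF against LF.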
